A study of Mus musculus with 2 samples.

Results

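Pax6, Trp63, Grhl2 and Grhl3 encode transcription factors of the corneal epithelium and other surface epithelia, and the Ehf peaks in and around their genes are described here. A peak was a member when its midpoint lay in 1 of 4 windows of the mm9 mouse genome, fixed by position. The window of Pax6, which takes in the gene and its downstream enhancers, was chromosome 2 from 105400000 to 105750000. That of Trp63 was chromosome 16 from 25630000 to 25945000, that of Grhl2 chromosome 15 from 37110000 to 37345000, and that of Grhl3 chromosome 4 from 135045000 to 135185000. Of the 15384 peaks in the deposited list, 6 were members, 1 at Pax6, 1 at Trp63, 2 at Grhl2 and 2 at Grhl3.

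Chromatin came from the corneal epithelium of wild-type mice aged 2 to 3 months, freed from the eye with dispase and pooled over 15 animals. The strain is given as CB6 in one label and as C57Bl/6 in another. One Ehf ChIP library, made from 24 ug of chromatin with the antibody ESE-3A (E-15), and 1 input library without antibody were sequenced with reads of 50 bp. The peak list belongs to the ChIP library, and no value of the input was analysed here. With 1 library per group no difference between samples could be tested, and no p-value is given. The number of reads behind a peak is unknown, because the list holds positions and scores and no counts.

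Ehf (also called ESE-3) is an ETS-family factor that binds DNA at sites built on a GGAA core and is made mainly in epithelial cells. Pax6 is a paired-domain and homeodomain factor needed for eye development, and it remains in use in the adult corneal epithelium. Its expression depends on enhancers spread over a wide region, several of them downstream in introns of the neighbouring gene Elp4. Trp63 encodes p63, a relative of p53 that maintains the stem and progenitor cells of stratified epithelia, the limbal and basal corneal cells among them. Grhl2 and Grhl3 belong to the Grainyhead-like family, which governs epithelial junctions, differentiation and barrier formation. No sequence or annotation of mm9 was used, so peaks are given by coordinate and were not assigned to a promoter, exon or intron.

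The 4 windows together carried about as many Ehf peaks as their length would give at the density of their own chromosomes. The 6 peaks lay in 1.04 Mb, or 5.77 per Mb, with an exact 95% Poisson interval of 2.12 to 12.6 that covers counting error only. The density of the 19 autosomes was 6.10 per Mb, and at the densities of the 4 chromosomes concerned 6.33 peaks would fall in these windows. Peaks occur in groups along chromosomes, so the spread between windows is wider than the Poisson interval. None of the 4 loci was a dense group of Ehf peaks in this list.

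**Figure D1:**
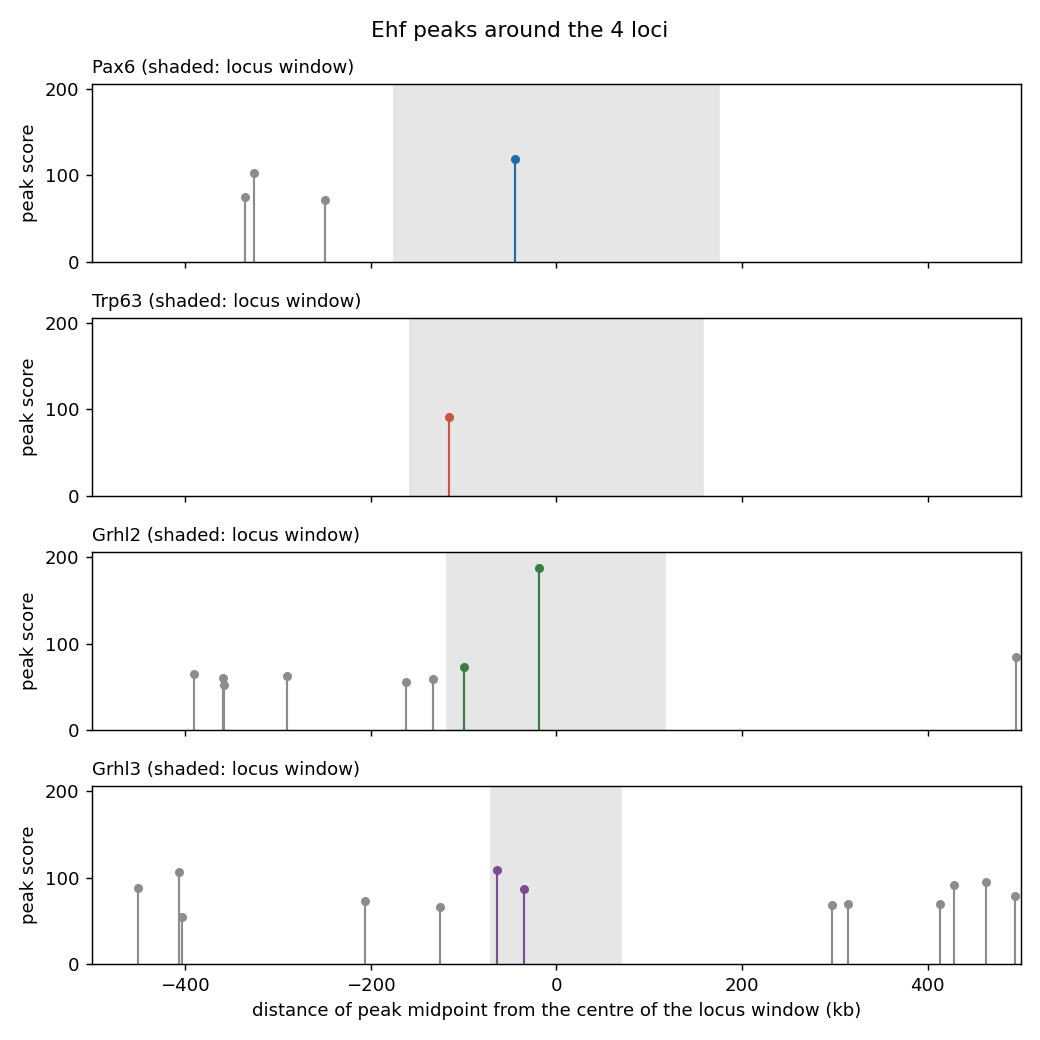
Ehf peaks within 500 kb of the centre of each locus window. The horizontal axis is the distance of the peak midpoint from the centre of the window (kb) and the vertical axis the authors' peak score; coloured peaks are in the shaded window, grey peaks outside it. All 6 coloured peaks lie at a lower coordinate than the centre of their window, and at Trp63 no grey peak is present. The side on which a peak lies relative to its gene was not examined.

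Pax6, the eye factor, had 1 peak in 350 kb. It ran from 105529918 to 105530090, 172 bp in all, and scored 119.26. Its midpoint was 130 kb from the start of the window and 220 kb from its end, so the later part of the window held no listed peak. The neighbouring peaks were both outside. The one before it (105325722 to 105326022, score 71.15) was 204 kb away and the one after it (106272086 to 106272431, score 75.42) was 742 kb away. The Pax6 peak was therefore the only one in a stretch of 0.946 Mb between its neighbours, and 76 of the 1193 peaks of chromosome 2 stood in a longer one.

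A single peak in a window of this length was a common count on chromosome 2. Of the 519 windows of 350 kb laid end to end over the chromosome, 96 (18.5%) also held 1 peak, 152 (29.3%) held none and 271 (52.2%) held more. At least 1 peak was present in 70.7% of them. The mean was 2.30 ± 2.44 (SD, n = 519 windows), so the Pax6 count lay below the mean by less than 1 SD. Since the SD exceeded the mean, an empty window would have done so too, and this measure could not show a low count. Its density was 2.86 per Mb against 6.56 for chromosome 2, with a Poisson interval of 0.0723 to 15.9 per Mb. The interval of an empty window of this length would also include the chromosome's value, so the inclusion says nothing about sparseness.

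Trp63, which encodes p63, also had 1 peak, in 315 kb. It ran from 25672096 to 25672253, 157 bp in all, scored 90.71 and lay 42.2 kb from the start of the window. The remaining 273 kb of the window held none. This was the most isolated of the 6 peaks. The nearest peak before it (24970050 to 24970403, score 68.61) was 702 kb away, and the nearest after it (27389048 to 27389460, score 128.52) was 1717 kb away.

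The stretch between these neighbours was 2.42 Mb, and 10 of the 486 peaks of chromosome 16 stood in a longer one. Measured by the distance to the nearest peak on either side, 8 of the 486 were more isolated. The window of Trp63 itself was too short to show whether it was sparse for its chromosome, because empty windows of that length were common. At least 1 peak was present in 58.2% of the 311 windows of 315 kb, 41.8% held none, and the mean was 1.55 ± 1.94 (SD, n = 311 windows). The Trp63 density of 3.17 per Mb had a Poisson interval of 0.0804 to 17.7 per Mb, around the chromosome's 4.94. Here too the interval of an empty window would have included the chromosome's value.

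Grhl2, a Grainyhead-like factor of epithelial junctions, had 2 peaks in 235 kb, and they differed in both score and width. The first ran from 37127410 to 37127925 (515 bp) and scored 72.62, and the second ran from 37208257 to 37208407 (150 bp) and scored 187.13. They were 80.3 kb apart. The second had the highest score of the 6 members, and 45 of the 681 peaks of chromosome 15 scored as high or higher. The first lay 17.7 kb inside the window, and the nearest peak outside (37094421 to 37094764, score 58.48) lay 15.4 kb before the window's start. After the second peak the next was 514 kb away (37722661 to 37723032, score 84.12).

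On chromosome 15, 34.9% of the 439 windows of 235 kb held at least 2 peaks, and 59 of them held exactly 2. The mean was 1.55 ± 2.10 (SD, n = 439 windows), and the most crowded window held 12. Grhl2 thus stood above the mean by less than 1 SD. Its density was 8.51 per Mb (Poisson interval 1.03 to 30.7), against 6.58 for the chromosome.

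Grhl3, the Grainyhead-like factor best known for epidermal barrier formation, had 2 peaks in its 140 kb, the highest density of the 4 loci. They ran from 135050660 to 135051021 (361 bp, score 109.20) and from 135079770 to 135080154 (384 bp, score 86.37), and were 28.7 kb apart, the closest pair among the members. Both lay near the start of the window, at 5.84 and 35.0 kb, and the last 105 kb held none. The nearest peaks outside were 134989449 to 134989796 (score 66.41), 55.4 kb before the window, and 135412261 to 135412669 (score 68.75), 227 kb after it.

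At least 2 peaks were present in 23.0% of the 1111 windows of 140 kb on chromosome 4, where 53.6% held none and the mean was 0.930 ± 1.36 (SD, n = 1111 windows). Grhl3 stood above this mean by less than 1 SD. Its density was 14.3 per Mb (Poisson interval 1.73 to 51.6), 2.15 times that of chromosome 4 (6.64). In order of density in their own windows the loci were Grhl3, Grhl2, Trp63 and Pax6. With 1 or 2 peaks each, the 4 Poisson intervals were so wide that their overlap is no comparison of the loci, and the order was not tested. It also depended on the window edges. Within 250 kb of the window centres the densities were 8.0 per Mb at both Grhl2 and Grhl3, 4.0 at Pax6 and 2.0 at Trp63.

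**Figure D2:**
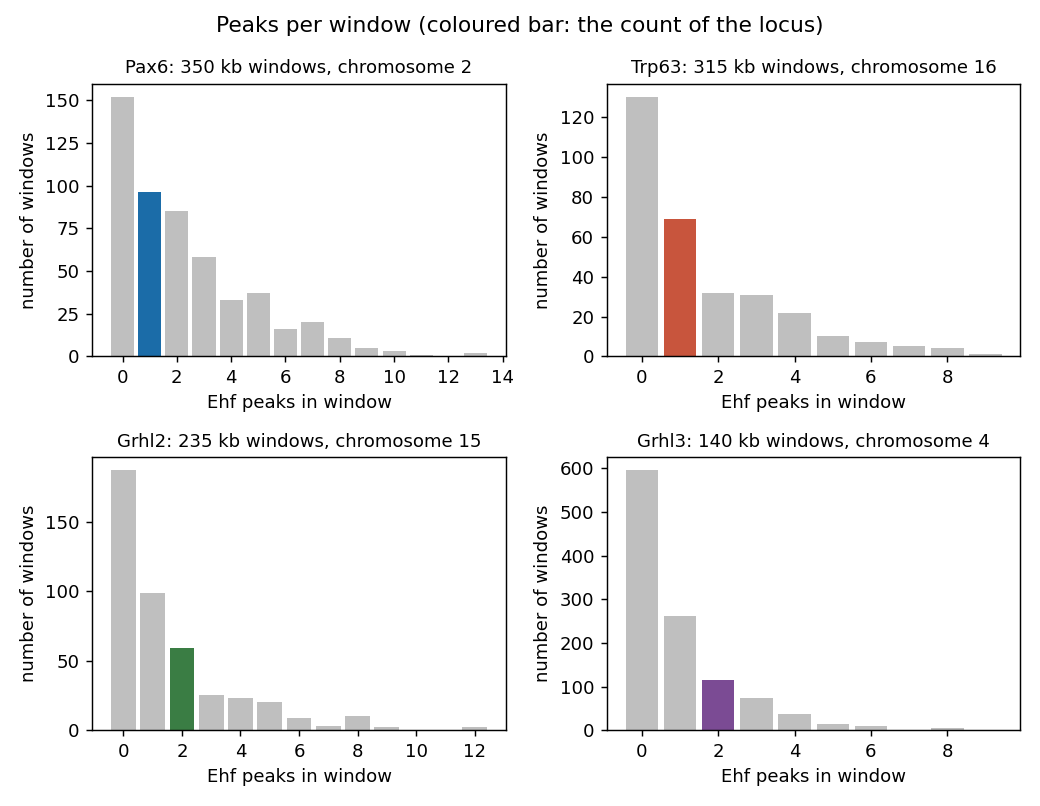
Number of Ehf peaks in windows as long as each locus window, laid end to end over the same chromosome. The horizontal axis is the number of peaks in a window and the vertical axis the number of windows. The coloured bar is the count found at the locus: 1 peak for Pax6 and Trp63 and 2 peaks for Grhl2 and Grhl3. Windows with fewer peaks than the locus made up 29.3% for Pax6, 41.8% for Trp63, 65.1% for Grhl2 and 77.0% for Grhl3.

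The windows differ in length, and counts were also taken at the common length of 140 kb. Pax6 and Trp63 held 0 or 1 peak in a stretch of 140 kb, depending on where in the window it was placed, and Grhl2 held 1 or 2. Grhl3 held 2 in its only placement. The means over windows of that length were 0.920 on chromosome 2, 0.691 on chromosome 16, 0.922 on chromosome 15 and 0.930 on chromosome 4.

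Peaks were also counted over 2 Mb centred on each locus, a length chosen after the values had been seen. Grhl3 had 29 peaks within 1 Mb on either side, and 7 of the 77 windows of 2 Mb on chromosome 4 (9.09%) held at least as many. Grhl2 had 20, reached by 25.5% of the 51 windows on chromosome 15. Pax6 had 12, close to the chromosome 2 median of 10 and reached by 43.3% of 90 windows. Trp63 had 2 peaks, its own and 1 other, against a chromosome 16 median of 7.5, and 22.9% of 48 windows held no more than 2. Thus the pair of Grhl3 peaks lay in peak-rich surroundings and the Trp63 peak in poor ones, while neither was beyond what other parts of the chromosome showed.

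The member scores lay mostly in the middle range of all peaks. Scores were assigned by the authors and their scale is not described, so they serve here only to rank peaks against each other. The 6 scores had a median of 99.96, from 72.62 to 187.13, against a median of 86.2 and quartiles of 66.9 and 125 for all peaks. Of the 6, 5 were above the median of the list, but the second Grhl3 peak and the Trp63 peak only narrowly. They stood at percentiles 50.3 and 53.8 of the list. Only 1, the second Grhl2 peak, was above the list's 90th percentile of 173. None reached the 99th percentile of 332. Within their own chromosomes the Pax6 peak stood at percentile 73.8, Trp63 at 54.9, the Grhl2 peaks at 36.7 and 93.4, and the Grhl3 peaks at 69.7 and 52.9.

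Rank depended on width. In the whole list, the median score was 140.02 for the 3383 peaks under 200 bp and 78.7 for the 12001 wider ones. Of the members, 3 of 6 were narrow in this sense, against 22.0% of the list. They were the single peaks of Pax6 and Trp63 and the higher of the Grhl2 pair. The 95% Wilson interval of the member share, 18.8 to 81.2%, includes the share of the list but covers counting error only. Among the narrow peaks of its own chromosome the Pax6 peak fell to percentile 38.3 and the Trp63 peak to 21.4, below the median narrow scores of 135.94 and 141.34. The narrow Grhl2 peak remained high, at percentile 78.8 of 137. Among peaks of 200 bp or more the first Grhl3 peak rose to percentile 78.2 and the second to 60.3 of 852, and the wide Grhl2 peak stood at 43.9 of 544. So within their width class the Grhl3 pair and the narrow Grhl2 peak were above the middle, and the other 3 below it. The class of 200 bp or more spans a broad range of widths, so its members were not compared with peaks of equal width.

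**Figure D3:**
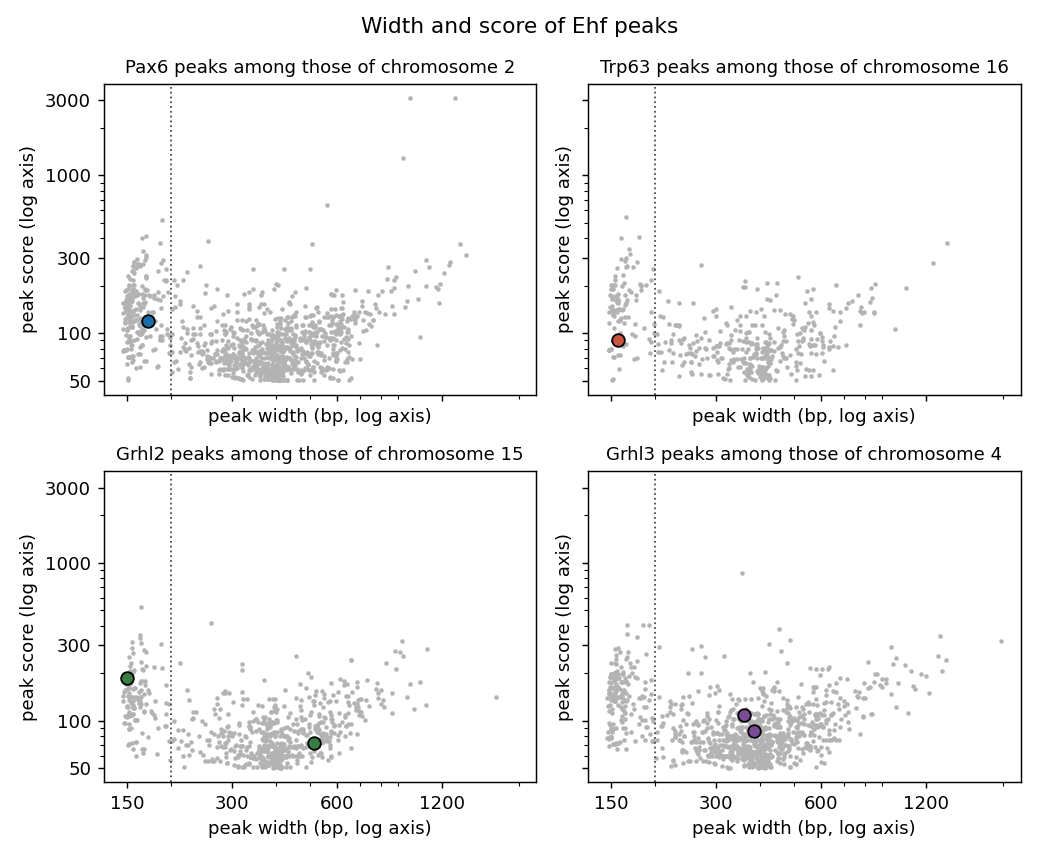
Width (bp, log axis) and score (log axis) of every Ehf peak on the chromosome of each locus, in grey, with the member peaks in colour. The dotted line marks 200 bp; the Pax6 and Trp63 peaks and the higher Grhl2 peak, at 187.13, lie left of it in the narrow group, and both Grhl3 peaks lie in the main group of wider peaks.

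No member had another peak within 10 kb. In the whole list 27.2% of peaks did, and on the 4 chromosomes 21.2% (chromosome 16) to 30.8% (chromosome 15) did. With 6 peaks this is a weak difference, since the 95% Wilson interval of 0 of 6 reaches 39.0%. That interval covers counting error only. It also treats the peaks as independent, although each Grhl3 peak is the nearest neighbour of the other. The distance to the nearest other peak was 28.7 kb for both Grhl3 peaks, 32.6 and 80.3 kb at Grhl2, 204 kb at Pax6 and 702 kb at Trp63. The median over the list was 30.2 kb. The 3 narrow members were also the 3 most isolated, and in the whole list narrow peaks had a median nearest distance of 40.2 kb against 28.4 kb for wider ones. Both features moved together here, and what part width plays in the isolation was not tested.

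The peaks covered little of each window. At Pax6 0.0491% and at Trp63 0.0498% of the bases lay in a peak, below the 0.249% of chromosome 2 and the 0.178% of chromosome 16. Grhl2, with 0.283%, was close to the 0.254% of chromosome 15. Grhl3, with 0.532%, was above the 0.257% of chromosome 4. A stretch without a listed peak cannot be read as a stretch free of Ehf. How the list was called or filtered is not given, and the read depth is unknown.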

How the data were processed

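The authors deposited a list of Ehf peaks with a chromosome, start, end, name and score per peak and no header. Per the submitters' processing notes the build was mm9, and the tools named are bedtools 2.11.2 and Bowtie 0.12.7. Each of the 15384 peak names starts with MACS_peak, but how the caller was run and whether it used the input is not given in the sources used here. The score is as deposited by the authors and was used only to rank and describe. Positions are printed as in the file, and whether starts count from 0 or 1 is not stated. No peak ended beyond its mm9 chromosome (lengths from GenomeInfoDb 1.38.1).

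The 4 loci and all measures were chosen with earlier results of these data known. Windows of the length of each locus were laid end to end in both directions from the locus window, which is counted among them, over the full chromosome, unsequenced stretches included, and a peak was counted by its midpoint. Gaps were measured edge to edge. Under each alternative setting a count was held to have moved beyond a factor of 1.5, a share outside its Wilson interval, and a median score outside the range of the locus's own peaks. Wilson and exact Poisson intervals are at 95% and cover counting error only. All 6 members are printed, with the nearest peak outside each end of each window. The RefSeq table of GRCm38.p6 was used for the gene name Elp4 only, since its build differs, and the planned search for the GGAA core was not run. Counting, spacing and merging were tested on simulated data, and 20 of 20 lists came back as made. Python 3.11.15 with numpy 2.4.6, pandas 2.3.3, scipy 1.17.1 and matplotlib 3.10.9 was used.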

Additional observations from a re-analysis of the deposited data

How the results depend on the processing

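With counts this low, 1 peak decides most values. Restricting the list to the 7712 peaks at or above the median score changed the share of equal windows that reached the locus count to 54.9% for Pax6, 42.1% for Trp63, 43.3% for Grhl2, where 1 peak was left, and 9.72% for Grhl3. Without peaks under 200 bp Pax6 and Trp63 had 0 peaks, Grhl2 had 1 (49.4%) and Grhl3 still 2 (19.7%). Shrinking each window by 25 kb at both ends left 1 peak at Grhl2 (51.1%) and 1 at Grhl3 (35.6%). Extending by 50 kb gave 4 peaks at Grhl2 (21.4%), whose median score fell to 65.55, and moved the share to 76.9% for Pax6 and 37.2% for Grhl3. Over windows with at least 1 peak the shares were 100% for Pax6 and Trp63, by construction, 60.7% for Grhl2 and 49.4% for Grhl3. Over windows of all autosomes the Trp63 share was 65.4%. Counting neighbours within 50 kb, 100% of the Grhl3 peaks had one, as did 66.9% of all peaks of chromosome 4, and 50% of the Grhl2 peaks had one, against 68.9% on chromosome 15; the Pax6 and Trp63 peaks had none, against 64.4% and 58.0%. Merging peaks up to 1 kb apart, counting any overlap, shifting the tiling and windows every 10 kb kept the share of equal windows within its Wilson interval at each locus. Neighbours within 5 kb, midpoint distances and the geometric mean of scores could not move a value, since no member has a peak within 10 kb and a mean of scores lies within their range. The limits for scores and neighbour shares are wide with 1 or 2 peaks, so these settings say nothing about stability there. Any regions left out of the deposited list, and the read depth, are unknown. No paired analysis was possible because the study has a single library of each kind.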
